A study of Mus musculus with 48 samples.

Results

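The genes Nr1d1 and Nr1d2, which encode the nuclear receptors REV-ERB alpha and REV-ERB beta, and Rora, which encodes the nuclear receptor ROR alpha, were followed by their gene symbols through every library of the study. They are 3 of the 11313 genes in the deposited tables, and all 3 passed the filters on low values in each kind of RNA. The cells were NIH 3T3, immortalised fibroblasts of mouse embryos in which the circadian clock runs. A stable line with a hairpin RNA against Bmal1, listed as Arntl in the tables, is named shBmal1 and was compared with a stable line carrying a control hairpin (shCTRL), 1 line of each kind. Both lines received 50% horse serum for 2 h, which sets the clocks of the cells to a common time, and were collected every 2 h from 24 to 46 h. From each culture came a library of 4sU-labelled RNA, recently transcribed RNA carrying the nucleoside 4sU (4-thiouridine), recovered by streptavidin after biotinylation, and a library of total RNA, giving 12 libraries in each of the 4 groups. Each time point of a group was a single library, so p-values measure the spread of single libraries around fitted curves, and the spread between independent lines is unknown.

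REV-ERB alpha and beta are repressors of transcription, while ROR alpha is an activator, and both kinds of receptor compete for the same DNA element, the RORE. The heterodimer of BMAL1 and CLOCK activates Nr1d1 and Nr1d2 through E-boxes, and the REV-ERB proteins repress the gene of BMAL1 in turn, which closes a second loop of the mammalian clock. REV-ERB proteins bind heme and recruit the corepressor NCOR1 with the histone deacetylase HDAC3. In many tissues the RNA of Nr1d1 is among the most strongly rhythmic of all, whereas that of Rora is usually described as only weakly rhythmic.

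The promoters are shown because E-boxes, through which BMAL1 and CLOCK activate Nr1d1 and Nr1d2, are short DNA motifs. Each window is from RefSeq on GRCm38.p6 and runs from 250 bases before to 50 bases after an annotated start, read 5′ to 3′ on the strand of the gene. The capitals mark an E'-box in Nr1d1, which reads CACGTT on the other strand, and a RORE half-site, AGGTCA, in Nr1d2. The windows were chr11:98775328-98775627 on the minus strand for Nr1d1, chr14:18239057-18239356 on the minus strand for Nr1d2, and chr9:68653536-68653835 on the plus strand for Rora. The Rora window lies wholly within the span of that gene, which begins at 68653404, so the start used is not the outermost.
Nr1d1 promoter: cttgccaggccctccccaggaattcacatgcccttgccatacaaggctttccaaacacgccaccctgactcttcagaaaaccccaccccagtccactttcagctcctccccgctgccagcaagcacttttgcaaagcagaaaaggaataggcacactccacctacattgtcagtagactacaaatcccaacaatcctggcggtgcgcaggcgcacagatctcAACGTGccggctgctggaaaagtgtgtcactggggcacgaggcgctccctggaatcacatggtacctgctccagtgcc
Nr1d2 promoter: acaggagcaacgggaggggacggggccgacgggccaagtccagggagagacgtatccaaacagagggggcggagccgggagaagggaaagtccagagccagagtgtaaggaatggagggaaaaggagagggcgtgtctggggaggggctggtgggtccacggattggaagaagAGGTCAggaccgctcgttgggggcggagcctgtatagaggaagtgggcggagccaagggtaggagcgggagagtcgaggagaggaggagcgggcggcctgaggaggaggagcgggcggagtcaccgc
Rora promoter: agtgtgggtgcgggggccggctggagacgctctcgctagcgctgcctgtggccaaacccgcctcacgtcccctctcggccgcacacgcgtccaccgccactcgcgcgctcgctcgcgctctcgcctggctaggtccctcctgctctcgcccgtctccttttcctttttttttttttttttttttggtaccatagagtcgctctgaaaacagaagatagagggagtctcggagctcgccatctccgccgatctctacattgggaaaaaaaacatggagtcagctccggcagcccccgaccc
Each window was searched on both strands for the E-box CACGTG, the E'-box CACGTT and the half-site AGGTCA, which share no overlap in these windows. The E'-box of Nr1d1 began at position -28 from the start, and the half-site of Nr1d2 at position -77. None of the 3 windows held CACGTG, and the Rora window held none of the motifs searched. Of 32851 RefSeq windows of this length, 7.15% held CACGTG, 4.69% held CACGTT and 16.3% held AGGTCA. A match describes these letters only and shows no bound protein.

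Nr1d1 spans chr11:98767932-98775377, Nr1d2 chr14:18204056-18239106 and Rora chr9:68653404-69388246 on GRCm38.p6. The lengths behind the deposited values differ widely between them, at 2706, 4648 and 10857 exon bases and 4681, 31532 and 723583 intron bases for Nr1d1, Nr1d2 and Rora. Values are RPKM, reads per kilobase of feature relative to the total of the library, scaled between the libraries of 1 kind of RNA. Exon values of total RNA (total exon) stand for the RNA present, and intron values of 4sU-labelled RNA (4sU intron) for unspliced, newly made RNA.

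Library depth was 51841130 to 67576474 reads in shBmal1 4sU, 48873013 to 71451107 in shCTRL 4sU, 50977879 to 69829031 in shBmal1 total and 53931845 to 76260143 in shCTRL total. All 8 fibroblast markers were present, with a summed total exon level of 4112 to 4593 RPKM in shBmal1 and 3876 to 4646 RPKM in shCTRL, and the tables held 1 of 5 epithelial, 3 of 4 leukocyte, 1 of 4 endothelial, 1 of 4 adipocyte and 0 of 4 neural markers. The fibroblast markers did not run alike: Vim, which carried most of the sum, averaged 2247 RPKM in shBmal1 and 1944 RPKM in shCTRL, whereas the receptor genes Pdgfra and Pdgfrb averaged 22.7 and 27.1 RPKM in shBmal1 against 68.5 and 42.6 RPKM in shCTRL. Likewise Col3a1 averaged 386 RPKM in shBmal1 and 669 RPKM in shCTRL, and Thy1 41.1 RPKM in shBmal1 and 59.0 RPKM in shCTRL, and the part of such differences between the lines in the members' values was not tested. The epithelial keratin Krt14 averaged 10.1 RPKM in shBmal1 and 3.06 RPKM in shCTRL. The libraries of 24, 26 and 28 h stood apart within shBmal1 total RNA: for 13.1% of the 10912 genes tested in total exon all 3 lay above or all 3 below the 9 later shBmal1 libraries, against 4.92% in shCTRL. Where leaving these time points out of both lines, an alternative chosen after seeing the data, changed a call or a direction or moved a called value by over 1.5 times, the value without them is given.

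The hairpin's target was reduced in exons of total and 4sU-labelled RNA but not in introns. Arntl averaged 3.74 ± 0.723 RPKM in shBmal1 and 9.24 ± 6.02 RPKM in shCTRL (SD, n = 12 each), a log2 difference of -0.92 (limma adjusted p = 3.59e-09). It was lower in shBmal1 at 9 of 12 time points and higher at the other 3, and its 24-h amplitude in total exon was 0.30 in shBmal1 and 1.59 in shCTRL on the log2 scale. In 4sU exons Arntl was also lower in shBmal1, with a log2 difference of -0.72 (limma adjusted p = 3.28e-07), as were 26.9% of genes. In 4sU introns Arntl was higher in shBmal1, with a log2 difference of 0.57 (limma adjusted p = 1.57e-05), as were 22.0% of genes.

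All 3 members were lower in shBmal1 in exons and introns of both total and 4sU-labelled RNA. Over the 12 time points the log2 difference in total exon was -1.56 ± 0.0554 for Nr1d1, -1.68 ± 0.0717 for Nr1d2 and -1.19 ± 0.0951 for Rora (SE of the limma fit). These are 2.95-fold, 3.21-fold and 2.28-fold lower levels. In such bulk libraries, fewer cells expressing a gene and less RNA per cell cannot be told apart. Nr1d1 and Nr1d2, the repressors, had smaller fitted 24-h amplitudes in shBmal1 than in shCTRL, and Rora, the activator, had no called rhythm in either line. In total exon, 33.1% of all genes tested were lower in shBmal1 at an adjusted p under 0.05, so the call alone sets the members little apart. Only 1.36% were also lower by at least 1 on the log2 scale, as all 3 members were in the main fit. Under the alternative settings the Rora difference ranged from -1.23 to -0.82, so Rora, unlike Nr1d1 and Nr1d2, did not always pass this cut. Ordered from the most reduced gene, Nr1d2 took rank 21, Nr1d1 rank 35 and Rora rank 85 of 10912.

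**Figure D1:**
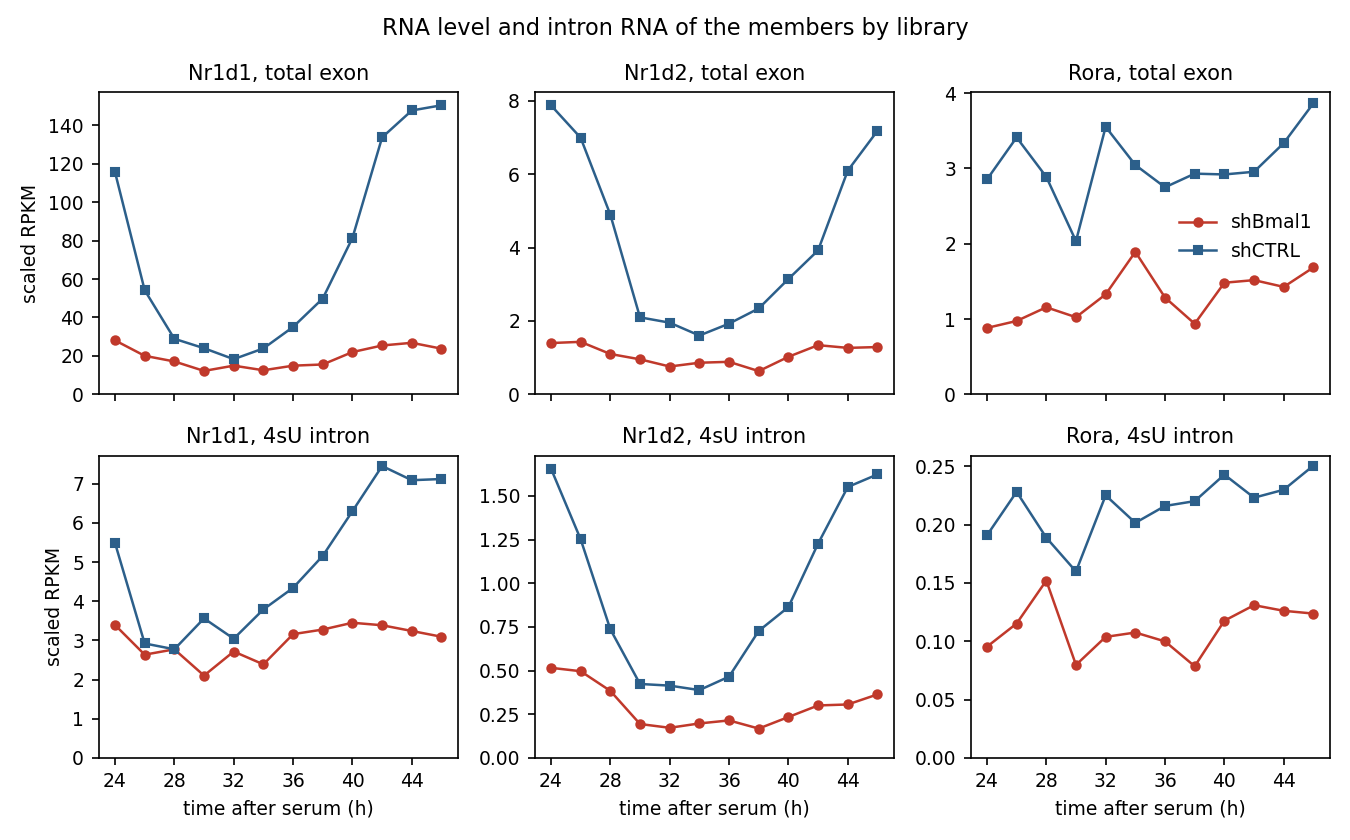
Scaled RPKM (y axes, from 0) of Nr1d1, Nr1d2 and Rora at each time after serum (x axes, h), with total exon in the upper row and 4sU intron in the lower; each point is 1 library, red circles shBmal1 and blue squares shCTRL. Nr1d1 in total exon stayed between 12.2 and 28.1 RPKM in shBmal1 and between 18.3 and 150.5 RPKM in shCTRL, and Rora lay lower in shBmal1 with no overlap of the lines in either row.

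Nr1d1, the gene of REV-ERB alpha, had in total exon a lowest value of 12.2 RPKM at 30 h, a median of 18.6 and a highest value of 28.1 RPKM at 24 h in shBmal1. In shCTRL the lowest value was 18.3 RPKM at 32 h, the median 52.0 and the highest 150.5 RPKM at 46 h. Nr1d1 was lower in shBmal1 at 12 of 12 time points. The gap was smallest at 32 h, at 0.29 on the log2 scale, and largest at 46 h, at 2.66. At the time points beside 32 h it was wider, 0.97 at 30 h and 0.93 at 34 h. The ranges of the lines overlapped, with 6 of the 12 shBmal1 values below the lowest shCTRL value. The difference over all time points had a limma adjusted p of 2.62e-15. Between 1872 and 4834 reads in shBmal1 and between 3174 and 26769 reads in shCTRL lay behind each value.

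In 4sU exons, where 26.9% of genes were called lower in shBmal1, Nr1d1 ran from 13.3 to 37.8 RPKM in shBmal1 and from 15.8 to 152.2 RPKM in shCTRL, a log2 difference of -1.28 ± 0.0725. Its introns differed less. In 4sU introns the values ran from 2.10 to 3.45 RPKM in shBmal1 and from 2.77 to 7.45 RPKM in shCTRL, a log2 difference of -0.65 ± 0.0639 (limma adjusted p = 1.75e-07), a layer in which 22.4% of genes were called lower. In total introns, with 26.8% of genes called lower, it was -0.56 ± 0.0720, lower in shBmal1 at 10 of 12 time points. Spliced Nr1d1 RNA thus differed between the lines by more than its intron RNA, and the direct measure of this gap, the total exon value over the 4sU intron value of the same culture, was lower in shBmal1 by 0.91 on the log2 scale (SE 0.0478, limma adjusted p = 1.30e-11). By this measure 24.7% of genes were called lower. The size of the gap depended on the processing. Under the alternative settings, which include the deposited scale, the ratio difference of Nr1d1 ranged from -0.92 to -0.34. Its 4sU intron difference ranged from -1.13 to -0.59, and its 4sU exon difference from -1.39 to -1.20.

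The 3′ end of Nr1d1 overlaps that of Thra, the gene of thyroid hormone receptor alpha on the opposite strand, by 1075 bases (chr11:98767932-98769006). The library kit keeps the strand, but the sources used here do not give whether the counting used it, so reads of the shared stretch cannot be assigned to one gene. Thra itself was lower in shBmal1 by 0.36 in total exon and by 0.38 in 4sU introns on the log2 scale, and in shCTRL its total exon had a 24-h amplitude of 0.33 with a peak at 41.0 h. Its total exon averaged 31.8 ± 4.15 RPKM in shBmal1 and 41.0 ± 7.28 RPKM in shCTRL (SD, n = 12 each). Its part in the Nr1d1 values was not tested.

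Nr1d2, the gene of REV-ERB beta, was expressed at a lower level than Nr1d1 at every time point in both lines. Its total exon ran from 0.632 RPKM at 38 h through a median of 1.06 to 1.43 RPKM at 26 h in shBmal1, and from 1.60 RPKM at 34 h through a median of 3.54 to 7.88 RPKM at 24 h in shCTRL. Every shBmal1 value lay below every shCTRL value, as for 7.08% of the genes tested. The smallest gap between libraries of 1 time point was -0.83 on the log2 scale at 34 h and the largest -2.41 at 24 h. Reads per library were 195 to 437 in shBmal1 and 487 to 2545 in shCTRL.

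Unlike Nr1d1, Nr1d2 was reduced by a similar amount in all 4 kinds of value. The log2 difference was -1.59 ± 0.107 in 4sU exons, -1.54 ± 0.0528 in total introns and -1.51 ± 0.0666 in 4sU introns, each lower at 12 of 12 time points. In 4sU introns the levels were 0.168 to 0.515 RPKM in shBmal1 and 0.388 to 1.66 RPKM in shCTRL. Nr1d2 ranked 20 of 10509 genes from the most reduced in 4sU introns, where 0.362% of genes were lower by at least 1 at an adjusted p under 0.05, and Nr1d1 ranked 139. The total exon over 4sU intron value of Nr1d2 differed by -0.17 ± 0.0573 (limma adjusted p = 0.0223), a call that was lost without 24 to 28 h, where the difference was 0.0891 (adjusted p = 0.454). On the deposited scale, where the median of all genes was 0.53 higher in shBmal1, the difference was 0.37.

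The gene of the activator ROR alpha, Rora, was lower in shBmal1 at all 12 time points. In total exon it ran from 0.882 RPKM at 24 h through a median of 1.31 to 1.89 RPKM at 34 h in shBmal1, and from 2.04 RPKM at 30 h through a median of 2.94 to 3.87 RPKM at 46 h in shCTRL. Relative to its level this range was about as wide as those of the REV-ERB genes in shBmal1, and narrower than theirs in shCTRL. All shBmal1 values lay below all shCTRL values in each of the 4 kinds of value, a pattern shown by 7.08% of genes in total exon, 3.30% in 4sU exon, 3.38% in total intron and 2.25% in 4sU intron. The gap at single time points was between -0.66 at 34 h and -1.71 at 26 h on the log2 scale in total exon.

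The log2 difference of Rora was -1.04 ± 0.113 in 4sU exons, -1.07 ± 0.0577 in total introns and -0.85 ± 0.0812 in 4sU introns (limma adjusted p = 1.25e-07). Its 4sU introns held 0.0785 to 0.152 RPKM in shBmal1 and 0.160 to 0.251 RPKM in shCTRL. These low densities rested on 3453 to 6850 intron reads per library in shBmal1 and 8003 to 14325 in shCTRL, since the introns are long. RefSeq lists 5 further genes within the span of Rora, 1 of them in the tables, and the sources used here do not give how shared reads were divided.

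**Figure D2:**
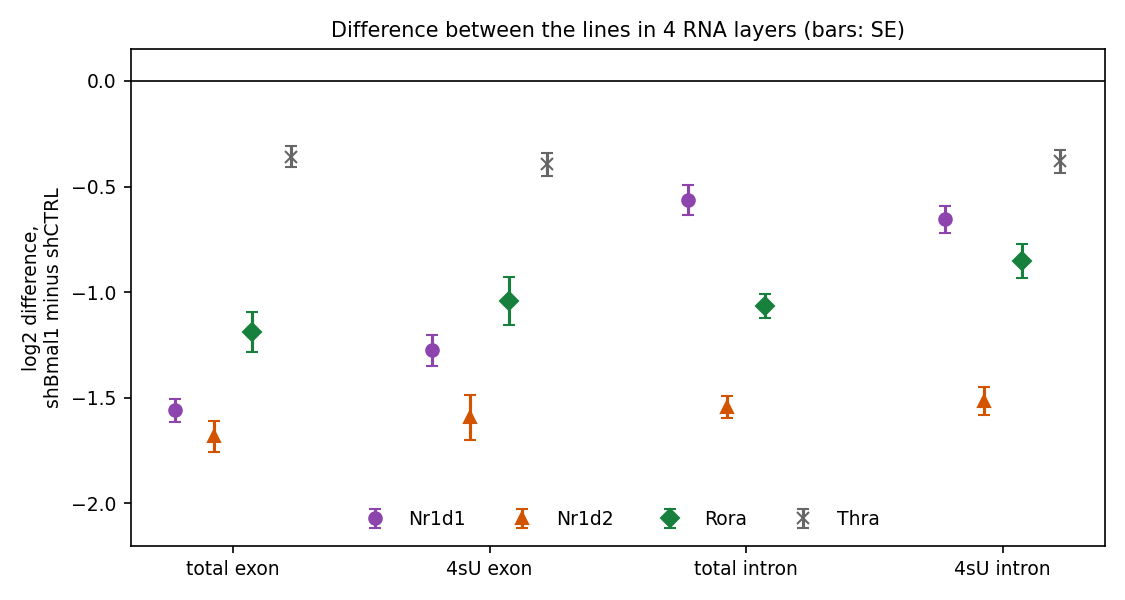
Log2 difference, shBmal1 minus shCTRL, over the 12 time points (y axis) in total exon, 4sU exon, total intron and 4sU intron (x axis); points are limma estimates, bars their SE, and gray crosses mark the neighbouring gene Thra, whose total intron value is left out because its intron length was not the same in all groups. Nr1d2 lay near -1.6 throughout, at -1.68 to -1.51, while Nr1d1 was at -1.56 and -1.28 in exons and at -0.56 and -0.65 in introns.

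The fitted 24-h amplitude of both REV-ERB genes was smaller in shBmal1 than in shCTRL in exons and introns. The Nr1d1 exon rhythms in shBmal1 kept their call without 24 to 28 h and those of Nr1d2 did not, while the reverse held in total introns, where Nr1d2 alone was called. The amplitude given is how far the fitted 24-h curve peaks above its mean in log2 units, over the single cycle sampled. In total exon Nr1d1 had an amplitude of 0.55 ± 0.0554 with a peak at 44.9 ± 0.387 h in shBmal1 (limma adjusted p = 5.63e-05) and of 1.51 ± 0.0554 with a peak at 44.2 ± 0.140 h in shCTRL (4.93e-13). These correspond to a peak-to-trough ratio of 2.13 in shBmal1 and 8.11 in shCTRL. Rhythms were called for 11.1% of genes in shBmal1 and 3.60% in shCTRL, and by amplitude Nr1d1 took rank 29 in shBmal1 and rank 3 in shCTRL. The difference of the 2 rhythms was itself called, at 0.98 ± 0.0784 (adjusted p = 1.01e-06), as it was for 0.806% of genes. Here and below, a difference of rhythm is the length of the difference between the 2 fitted curves. It takes in the time of the peak as well as the amplitude, so it is not the drop in amplitude.

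Nr1d2 had in total exon an amplitude of 0.41 ± 0.0717 at 46.9 h in shBmal1 (limma adjusted p = 0.00321) and of 1.09 ± 0.0717 at 46.8 h in shCTRL (7.29e-09). The difference was 0.68 ± 0.101 (adjusted p = 0.00288). Without 24 to 28 h the shBmal1 amplitude was 0.30 (adjusted p = 0.0826) and the difference 0.71 (adjusted p = 0.0718), so both calls were lost, while all Nr1d1 calls in exons were kept. A linear drift term also ended the call of the shBmal1 rhythm in total exon, at 0.43 (adjusted p = 0.0608). The shBmal1 amplitude as a share of the shCTRL amplitude was 36.2% in total exon, 40.2% in 4sU exon, 32.1% in total intron and 37.9% in 4sU intron for Nr1d1. For Nr1d2 the shares were 37.6% in total exon, 69.7% in 4sU exon, 43.96% in total intron and 61.3% in 4sU intron. The 4sU shares of Nr1d2 were smaller without 24 to 28 h. Its amplitudes were then 0.34 in shBmal1 and 0.98 in shCTRL in 4sU exon, and 0.42 in shBmal1 and 1.01 in shCTRL in 4sU intron. The intron shares of Nr1d1, whose shBmal1 intron rhythms were not called in the main fit, were larger without 24 to 28 h. The Nr1d1 amplitudes were then 0.33 in shBmal1 and 0.44 in shCTRL in total intron. In 4sU intron they were 0.32 in shBmal1 and 0.58 in shCTRL.

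The exon amplitudes of Nr1d1 stood above its intron amplitudes in both lines. Rhythms were called in 4sU exons for 17.9% of genes in shBmal1 and 1.98% in shCTRL, in 4sU introns for 5.82% in shBmal1 and 1.12% in shCTRL, and in total introns for 5.17% in shBmal1 and 1.34% in shCTRL. The 4sU exon amplitude of Nr1d1 was 0.63 in shBmal1 and 1.56 in shCTRL, and the difference between the lines was called (1.01, limma adjusted p = 8.90e-05; 1.06% of genes). In 4sU introns it was 0.25 in shBmal1, where the rhythm was not called (adjusted p = 0.0528) except without 24 to 28 h (0.32, adjusted p = 0.0328), and 0.67 at 42.4 h in shCTRL (adjusted p = 1.34e-05), and the difference of 0.42 was not called (adjusted p = 0.101). For total introns the amplitudes of Nr1d1 were 0.16 in shBmal1 (adjusted p = 0.376) and 0.49 in shCTRL (adjusted p = 0.00241), a call lost with a linear term for time (0.51, adjusted p = 0.270).

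The intron amplitudes of Nr1d2 in shCTRL were close to its exon amplitudes. The 4sU intron amplitude was 0.65 with a peak at 47.7 h in shBmal1 (limma adjusted p = 0.000253) and 1.06 with a peak at 45.5 h in shCTRL (3.30e-08), with a called difference of 0.62 (adjusted p = 0.0123; 0.285% of genes). Without 24 to 28 h the shBmal1 amplitude was 0.42 and still called (adjusted p = 0.00774). The call of the difference was lost with a linear term for time (0.56, adjusted p = 0.320), without 34 h (0.59, adjusted p = 0.0607) and without 44 h (0.61, adjusted p = 0.112). For total introns the amplitudes were 0.45 in shBmal1 and 1.02 in shCTRL, both with a peak at 45.8 h, and the difference of 0.57 was called (adjusted p = 0.00330; 0.0998% of genes). In 4sU exons the fitted peaks, which recur every 24 h, were at 24.65 h in shBmal1 and 46.3 h in shCTRL. There the shBmal1 amplitude of 0.77 (adjusted p = 0.00111) was the highest of the 4 kinds of value. The shCTRL amplitude was 1.10, and the difference of rhythm of 0.65 missed the threshold (adjusted p = 0.0791). Without 24 to 28 h that shBmal1 amplitude was 0.34 (adjusted p = 0.0902).

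Rora reached 24-h amplitudes of 0.13 to 0.22 in shBmal1 and 0.10 to 0.14 in shCTRL over the 4 kinds of value, and none was called. The lowest adjusted p was 0.0682, for total introns in shBmal1. No difference of the Rora rhythm between the lines was called, with estimates of 0.14 to 0.20 and SEs of 0.0816 to 0.159. Of the 12-h rhythms, tested in total exon and 4sU introns, none was called for any member, and over all genes limma called 2 in shBmal1 total exon, or 0.0183% (2644 at an unadjusted p under 0.05), and 0 in shCTRL total exon (352 unadjusted).

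**Figure D3:**
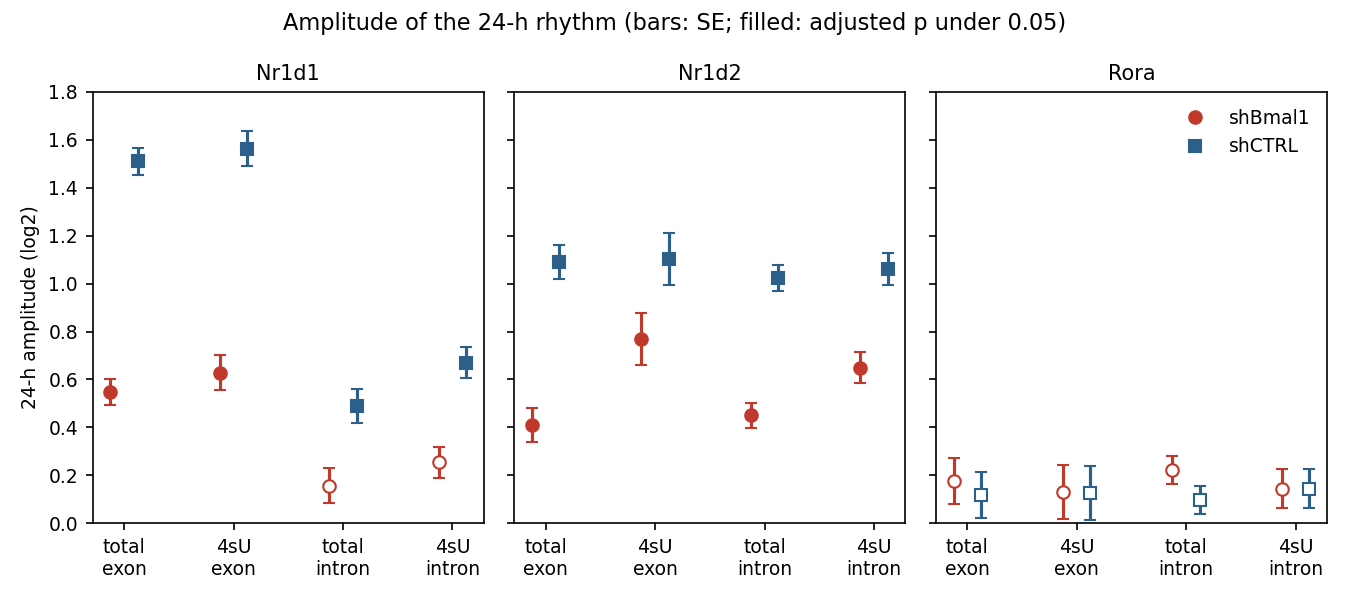
Fitted 24-h amplitude on the log2 scale (y axes) in 4 kinds of value (x axes) for Nr1d1, Nr1d2 and Rora; red circles are shBmal1, blue squares shCTRL, bars the SE, and filled symbols rhythms at an adjusted p under 0.05. The exon amplitudes of Nr1d1 in shCTRL, 1.51 and 1.56, stood above its intron amplitudes of 0.49 and 0.67, whereas those of Nr1d2 in shCTRL lay between 1.02 and 1.10.

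The fitted peaks of Nr1d2 came after those of Nr1d1, by gaps that depended on the time points used. In shCTRL total exon the peak of Nr1d2 was 2.65 h after that of Nr1d1 (combined SE 0.288 h), and in 4sU introns 3.06 h after it (combined SE 0.436 h). In shBmal1 the gap was 2.02 h in total exon (combined SE 0.771 h) and 5.35 h in 4sU introns (combined SE 1.04 h), where the Nr1d1 rhythm was not called. Within shCTRL, total exon peaked 1.76 h after 4sU intron for Nr1d1 (combined SE 0.390 h) and 1.35 h after it for Nr1d2 (combined SE 0.347 h). Without 24 to 28 h, the Nr1d2 peak followed that of Nr1d1 by 2.07 h in shBmal1 and 1.82 h in shCTRL in total exon, and by 4.42 h in shBmal1 and 1.11 h in shCTRL in 4sU introns. The lag of total exon behind 4sU intron in shCTRL was then 0.52 h for Nr1d1 and 1.23 h for Nr1d2. These gaps are differences of fitted peaks and were not tested, and samples were 2 h apart, so several of them are shorter than the sampling step.

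The ratio of total exon to 4sU intron changed through the day for Nr1d1. On the log2 scale it ran from 2.24 at 36 h to 3.05 at 24 h in shBmal1 and from 2.59 at 32 h to 4.40 at 46 h in shCTRL. Its 24-h amplitude in shCTRL was 0.96 ± 0.0478 with a peak at 45.4 h (limma adjusted p = 2.20e-09), which 0.175% of genes shared at that threshold, and its rhythm differed between the lines by 0.60 (adjusted p = 0.00186; 0.107% of genes). Nr1d2 had a smaller rhythm of this ratio in shCTRL, 0.38 at 27.8 h (adjusted p = 0.0136), and a difference of 0.59 between the lines (adjusted p = 0.0166). Neither Nr1d2 call held without 24 to 28 h, at 0.32 (adjusted p = 0.434) and 0.36 (adjusted p = 0.496). With a linear term for time they were 0.47 (adjusted p = 0.541) and 0.64 (adjusted p = 0.249), and leaving out single time points ended the first call in 3 of 12 cases and the second in 7 of 12, with 0.33 and 0.50 without 28 h.

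For Rora the ratio ran from 2.87 at 28 h to 3.97 at 34 h in shBmal1 and stayed between 3.52 and 3.90 in shCTRL. Its mean was lower in shBmal1 by 0.33 on the log2 scale (SE 0.0584, limma adjusted p = 0.000142), and by 0.17 without 24 to 28 h (adjusted p = 0.0909). On the deposited scale, with its shift of 0.53 for the median gene, it was higher in shBmal1 by 0.16. For both Nr1d2 and Rora the 3 lowest shBmal1 values were those of 24, 26 and 28 h, and whether these libraries account for the difference was not tested beyond leaving them out.

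**Figure D4:**
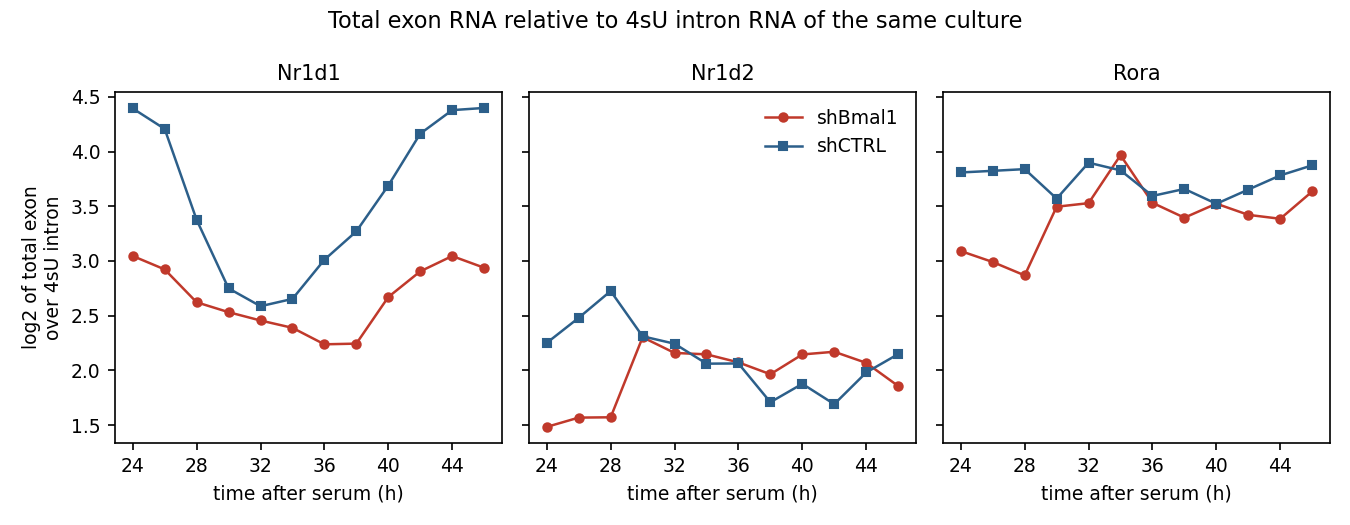
Log2 of the total exon over the 4sU intron value of the same culture (y axis) at each time after serum (x axis, h) for Nr1d1, Nr1d2 and Rora; each point is 1 culture, red circles shBmal1 and blue squares shCTRL. Nr1d1 ranged between 2.24 and 3.05 in shBmal1 and between 2.59 and 4.40 in shCTRL, and the shBmal1 values of Nr1d2 and Rora were lowest at 24, 26 and 28 h.

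The 4sU exon over total exon ratio was higher in shBmal1 for Nr1d1 at 12 of 12 time points. It averaged 0.18 ± 0.144 in shBmal1 and -0.11 ± 0.0629 in shCTRL on the log2 scale (SD, n = 12 each), a difference of 0.28 ± 0.0382 (limma adjusted p = 2.78e-05), where 15.9% of all genes were called higher. Rora had a difference of 0.14 (adjusted p = 0.0460) that was 0.0207 without 24 to 28 h (adjusted p = 0.85), and with the time point as a block it had an adjusted p of 0.194. Nr1d2 had a difference of 0.09 (adjusted p = 0.361), which turned to -0.13 without 24 to 28 h (adjusted p = 0.311). No member had a called rhythm of this ratio in shCTRL (0.0184% of genes), and none a called difference of rhythm between the lines (0.0920%).

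Set side by side per length, Nr1d1 was the most abundant member. Its total exon averaged 19.4 ± 5.67 RPKM in shBmal1 and 72.0 ± 51.6 RPKM in shCTRL (SD, n = 12 each). Nr1d2 averaged 1.08 ± 0.266 RPKM in shBmal1 and 4.17 ± 2.34 RPKM in shCTRL, and Rora 1.30 ± 0.317 RPKM in shBmal1 and 3.05 ± 0.463 RPKM in shCTRL. Nr1d1 exceeded Nr1d2 at all 12 time points of each line, by 12.8 to 24.6 times in shBmal1 and by 5.90 to 34.1 times in shCTRL. Nr1d2 and Rora overlapped in both lines: Rora was the higher at 10 of 12 time points in shBmal1 and at 4 of 12 in shCTRL.

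Repressor and activator RNA were both lower in shBmal1, and the median of their ratio differed less between the lines than either level. The summed total exon RPKM of Nr1d1 and Nr1d2 over that of Rora had a median of 15.6 in shBmal1 and 17.9 in shCTRL. It ran from 7.07 at 34 h to 33.4 at 24 h in shBmal1, and from 5.70 at 32 h to 46.6 at 42 h in shCTRL, and was lower in shBmal1 at 9 of 12 time points. The medians hide wide gaps at single time points. At 42, 44 and 46 h the total exon ratio was 17.6, 19.7 and 14.9 in shBmal1 and 46.6, 46.1 and 40.8 in shCTRL. In 4sU introns the median was 28.2 in shBmal1 and 25.8 in shCTRL, and the ratio was lower in shBmal1 at 3 of 12 time points. This is a ratio of RNA densities, and protein was not measured.

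The library-to-library course of Rora was set beside that of other long transcripts. Among 526 genes with at least 8000 exon bases, other than Rora, the median total exon level was lower in shBmal1 by 0.27 on the log2 scale, against a median of 0.01 for all genes tested, and 363 (69.0%) were called lower and 53 higher. Only 3 of the 526 were reduced more than Rora. Within shBmal1 the median of these genes was highest at 34 h, 0.32 above their mean of the line, where Rora was 0.54 above its own. Within shCTRL it was lowest at 30 h, by 0.23, where Rora was lowest too, by 0.54. The other extremes did not coincide: within shBmal1 the long genes were lowest at 28 h, by 0.21, and Rora at 24 h, by 0.48, and within shCTRL the long genes were highest at 32 h, by 0.0987, and Rora at 46 h, by 0.35. Deviations of Rora and of these genes had the same sign in 10 of 12 libraries of each line. The part of transcript length in the Rora values was not tested.

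**Figure D5:**
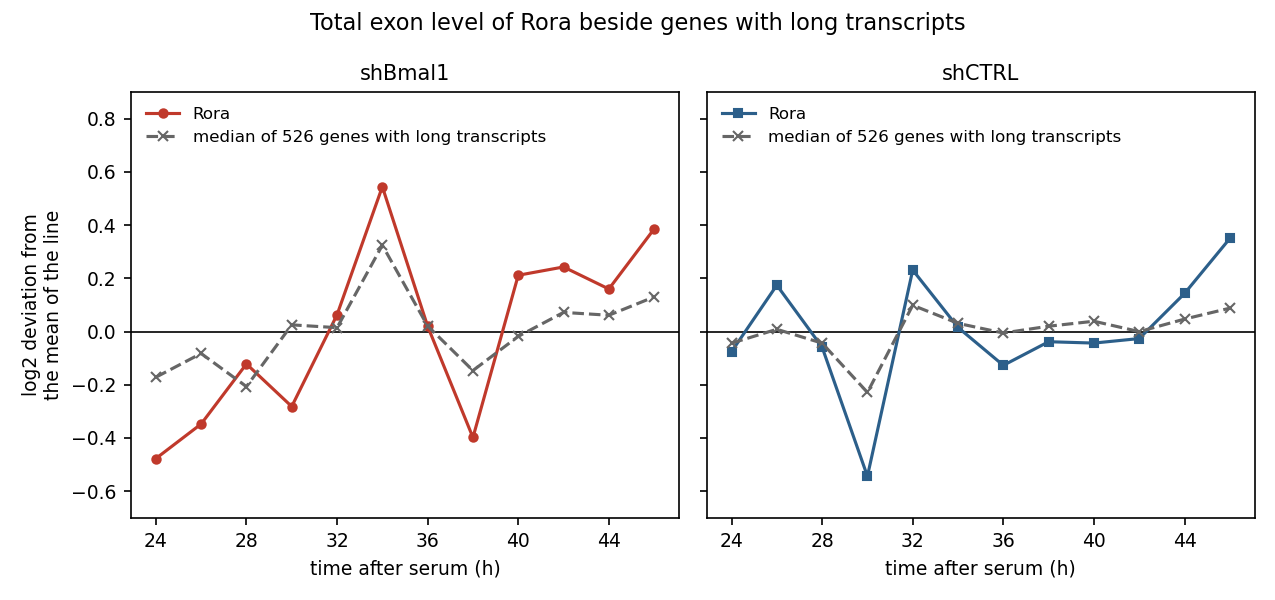
Log2 deviation of total exon from the mean of the line (y axis) at each time after serum (x axis, h), for Rora (colour) and for the median of 526 genes with at least 8000 exon bases (gray dashes), with shBmal1 on the left and shCTRL on the right. Both curves rise at 34 h in shBmal1 (0.54 and 0.32) and dip at 30 h in shCTRL (-0.54 and -0.23), while in shBmal1 Rora is lowest at 24 h and the gray curve at 28 h.

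The genes whose total exon course was most like each member over the 12 shCTRL libraries, by Pearson correlation of log2 values among 10234 genes, were named as a description, since libraries share depth and composition. For Nr1d1 they were Calr, the gene of the endoplasmic reticulum chaperone calreticulin (r = 0.973 in shCTRL), Tns2, a focal adhesion gene (0.943), and the transcription factor gene Runx1 (0.930). Over the shBmal1 libraries the same pairs had r of 0.705, 0.508 and 0.251. For Nr1d2 they were Dbp, a clock-controlled transcription factor gene and E-box target (0.959), Dgat2, of triglyceride synthesis (0.959), and Hhipl1 (0.951), with 0.641, 0.412 and 0.414 in shBmal1. For Rora they were Pafah1b1 (0.988), Zranb1 (0.981) and Cdv3 (0.979), with 0.767, 0.689 and 0.219 in shBmal1. Nr1d1 and Nr1d2 had r of 0.760 in shBmal1 and 0.736 in shCTRL, and Rora had r of 0.0085 with Nr1d1 and 0.0049 with Nr1d2 in shBmal1, against 0.352 and 0.410 in shCTRL.

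The known targets of these receptors did not move in 1 direction. Of 6 RORE target genes in the tables, 3 were higher and 3 lower in shBmal1 in total exon at an adjusted p under 0.05. Of all genes tested, 34.4% were higher and 33.1% lower. The median log2 difference of the list was -0.08, against 0.01 for all genes. Nfil3, the gene of a repressor that acts on D-boxes, was higher by 1.23 ± 0.0961 (limma adjusted p = 5.64e-10). Cry1, of a core clock repressor, was higher by 0.67 ± 0.0455 (limma adjusted p = 5.38e-11). Arntl was lower, but it is also the gene that the hairpin targets, and in 4sU introns it was higher by 0.57. Ccl2, a chemokine gene, was lower by 0.45 ± 0.0474. In 4sU introns 4 were higher and 1 lower, where 22.0% of all genes were called higher and 22.4% lower. Called rhythms in total exon numbered 3 of 6 in shBmal1 and 4 of 6 in shCTRL, where 11.1% of all genes were called in shBmal1 and 3.60% in shCTRL.

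Of 15 E-box target genes, which include Nr1d1 and Nr1d2, 3 were higher and 6 lower in shBmal1 in total exon, with a median of -0.13. Of all genes, 34.4% were called higher and 33.1% lower. The 4 with the largest differences were Nr1d2, Nr1d1, Dbp (-1.31 ± 0.0839) and the period gene Per3 (-1.29 ± 0.0609), all lower, so both members led this list. Rhythms were called for 9 of 15 in shBmal1, against 11.1% of all genes, and for 14 of 15 in shCTRL, against 3.60%, with median amplitudes of 0.31 in shBmal1 and 0.86 in shCTRL.

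Of 12 coregulators of REV-ERB and ROR, 2 were higher and 9 lower in shBmal1 in total exon, with a median of -0.32. Of all genes, 34.4% were called higher and 33.1% lower. Ncoa2, a coactivator gene, was lower by 0.75 ± 0.0396 and the acetyltransferase gene Ep300 by 0.52 ± 0.0314. Ncoa1 was lower by 0.45 ± 0.0656 and Nrip1, a corepressor gene, by 0.43 ± 0.0510. In total RNA these named genes have exon lengths from 7284 bases (Ncoa1) to 9505 bases (Ep300), and the part of length in their differences was not tested. None of the 12 had a called 24-h rhythm in either line. In 4sU introns 1 was higher and 4 lower of 11 tested, with a median of -0.09, where 22.0% of all genes were called higher and 22.4% lower.

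Of 6 genes for enzymes of REV-ERB alpha phosphorylation and degradation, 1 was higher and 3 lower in shBmal1 in total exon. The kinase gene Cdk1 was higher by 0.76 ± 0.0635. The ubiquitin ligase genes Mycbp2 and Huwe1 were lower by 0.42 ± 0.0735 and 0.29 ± 0.0599, and the kinase gene Gsk3b by 0.27 ± 0.0523. These 3 have 15064, 14414 and 8282 exon bases, and of the genes with at least 8000 exon bases 69.0% were called lower. The part of transcript length in their differences was not tested. In 4sU introns 1 gene of this list was higher and 0 lower of 5 tested. Of 12 genes of heme synthesis and breakdown, 5 were higher and 4 lower. The heme oxygenase gene Hmox1 was higher by 0.79 ± 0.0485, and the biliverdin reductase genes Blvrb and Blvra by 0.49 ± 0.0468 and 0.45 ± 0.0704, while Cpox, of heme synthesis, was lower by 0.75 ± 0.0791. With 34.4% of all genes higher and 33.1% lower in total exon at this threshold, these counts are descriptions of the lists and not results about them.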

How the data were processed

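RNA was measured in 48 libraries of NIH 3T3 fibroblasts, 12 in each of 4 groups set by the hairpin and the RNA fraction in the labels. Pull-downs took 30 ug of RNA each, per the labels' protocols, a larger part of the RNA in shBmal1 than in shCTRL, and ribosomal RNA was depleted before strand-specific, paired-end sequencing. The authors deposited RPKM for 11313 genes in 1 exon and 1 intron table. Trim Galore, HOMER 4.11.1 and the builds mm10 and GRCm38.p6 are named in the submitters' processing notes; the sources used here give neither the aligner nor the strand setting.

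The deposited RPKM are whole multiples of what 1 read is worth, which gave each library's total. In 36 libraries the exon and intron totals were equal, but in shBmal1 4sU the intron total was the larger by 1.35 to 1.39 times, so RPKM were scaled by the median ratio within each of the 4 layers (total exon, 4sU exon, total intron, 4sU intron). Values were put on the log2(scaled RPKM + pseudocount) scale, with pseudocounts of 0.1 for exons and 0.02 for introns, on which changes of low genes come out too small. Tests covered genes averaging at least 0.5 RPKM in exons or 0.1 in introns.

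Each layer, and 2 log2 differences between libraries of 1 culture, was modelled in limma 3.58.1 (R 4.3.3; trend, robust) by a mean and 24-h and 12-h cosine and sine terms per line. Benjamini-Hochberg adjustment ran over all genes of a layer, and calls were made at 0.05. The procedure was tested on simulated data with independent noise for each gene and library. Such data hold no drift and no shifts shared by a library, so they cannot show how these affect the calls. The members, the lists and the rule for naming genes (the members, Thra, Arntl, up to 4 called genes per list with the largest difference, and the 3 most alike genes) were chosen with earlier results of these data known; the genes with long transcripts and the early time points were looked at after seeing the data. Alternatives were another pseudocount, no filter, no scaling, other time terms, the time point as a block, and each time point left out. Time points pair the lines by hours after serum, per the labels.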

Additional observations from a re-analysis of the deposited data

Results flagged for a closer look

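The 24-h rhythm differed between shBmal1 and shCTRL by the test of the difference itself for 7 member results, each given as the length of the difference between the fitted rhythms on the log2 scale. For Nr1d1 it was 0.98 in total exon (limma adjusted p = 1.01e-06), 1.01 in 4sU exon (8.90e-05) and 0.60 in total exon over 4sU intron (0.00186). For Nr1d2 it was 0.68 in total exon (0.00288), 0.57 in total intron (0.00330), 0.62 in 4sU intron (0.0123) and 0.59 in total exon over 4sU intron (0.0166). Of these Nr1d2 calls, only that in total intron was kept under every alternative setting. Among all genes tested, the difference was called for 0.806% in total exon and 1.06% in 4sU exon. The shares were 0.0998% in total intron, 0.285% in 4sU intron and 0.107% in total exon over 4sU intron. Groups of 12 libraries were too large for the test of single outlying samples.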

How the results depend on the processing

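Apart from the values given here, the 24-h calls of Nr1d1 kept their direction and side of the adjusted p threshold under every alternative. The same held for the line differences of all 3 members in exons and introns. In size, the Rora line difference in total exon ranged from -1.23 to -0.82, so it was not lower by at least 1 throughout. The intron differences varied in size too. In 4sU introns the ranges were -1.128 to -0.592 for Nr1d1, -1.967 to -1.115 for Nr1d2 and -1.27 to -0.4165 for Rora. In total introns they were -0.662 to -0.4835 for Nr1d1, -1.559 to -1.019 for Nr1d2 and -1.094 to -0.4716 for Rora.

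With a linear term for time, the limma count of rhythmic genes was 11 in shBmal1 total exon (1214 without it), 108 in shCTRL total exon (393), 6 in shBmal1 4sU intron (612), 45 in shCTRL 4sU intron (118), 30 and 10 for the difference of rhythm (88 in total exon and 30 in 4sU intron), and 0 for 12-h rhythms in shBmal1 total exon (2). The rhythms that missed the threshold with it were Nr1d1 shCTRL total intron 0.51, Nr1d2 shBmal1 total exon 0.43, Nr1d2 shCTRL exon over 4sU intron 0.47, and the Nr1d2 differences of rhythm of 0.56 in 4sU intron and 0.64 in exon over 4sU intron.

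Without 24 to 28 h, the counts were 565 (shBmal1 total exon), 152 (shCTRL total exon) and 30 (difference, total exon), and for 12-h rhythms in shBmal1 1 in 4sU intron and 0 in total exon. Calls lost were the Nr1d2 shBmal1 rhythm in 4sU exon (0.34) and total exon (0.30), the Nr1d2 shCTRL rhythm of exon over 4sU intron (0.32), and the Nr1d2 differences of rhythm in total exon (0.71) and exon over 4sU intron (0.36); the Nr1d1 shBmal1 4sU intron rhythm was called (0.32). The Nr1d2 line differences turned to -0.13 in the 4sU/total ratio and 0.0891 in exon over 4sU intron, and those of Rora were 0.0207 and -0.17, not called.

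With the larger pseudocounts, 126 genes (245) differed between the lines in total exon and 47 (92) in 4sU intron. The Nr1d2 difference of the 4sU/total ratio turned to -0.0076, that of Rora was 0.0146 and the Nr1d2 difference of exon over 4sU intron -0.0734, none called, while the Nr1d2 differences of rhythm in 4sU exon (0.59) and in the 4sU/total ratio (0.39) were called. On the deposited scale the median of all genes shifted by -0.45 in 4sU intron, where 256 genes (92) differed, and by 0.53 in exon over 4sU intron, where Nr1d2 turned to 0.37 and Rora to 0.16. There the Rora 4sU/total difference was 0.13 and not called, the Nr1d1 difference of rhythm in 4sU intron was 0.47 and called, and 154 genes (2) had a 12-h rhythm in shBmal1 total exon. Intron RPKM on the exon total, chosen after seeing the data, gave -0.0574 for Nr1d2 exon over 4sU intron. Without 12-h terms, 78 genes (118) were rhythmic in shCTRL 4sU intron, the Nr1d2 shCTRL exon over 4sU intron rhythm of 0.38 was not called, and the differences of rhythm in the 4sU/total ratio of Nr1d2 (0.56) and Rora (0.33) were called.

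With the time point as a replicate block, which pairs the lines by hours after serum, or with no time terms, the Nr1d2 difference of exon over 4sU intron (-0.17) and the Rora 4sU/total difference (0.14) were not called, and the block changed no other call.

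Leaving out each time point in turn changed calls of the following, given with their ranges: Nr1d1 shBmal1 4sU intron rhythm 0.21 to 0.30 and its difference of rhythm 0.33 to 0.54; Nr1d2 shCTRL exon over 4sU intron rhythm 0.33 to 0.41; Nr1d2 differences of rhythm 0.54 to 0.73 (4sU exon), 0.59 to 0.68 (4sU intron), 0.48 to 0.62 (4sU/total) and 0.50 to 0.66 (exon over 4sU intron); Nr1d2 line difference of exon over 4sU intron -0.22 to -0.12; Rora shBmal1 total intron rhythm 0.16 to 0.27 and Rora 4sU/total difference 0.12 to 0.18. Counts ranged from 376 to 1826 (shBmal1 total exon), 202 to 468 (shCTRL total exon), 133 to 1541 (shBmal1 4sU intron), 46 to 206 (shCTRL 4sU intron), 38 to 171 and 8 to 250 (difference, total exon and 4sU intron), and for 12-h rhythms 0 to 1975 (shBmal1 total exon), 0 to 696 (shBmal1 4sU intron) and 0 to 2 (shCTRL total exon). The cause of these changes was not tested. With 1 library per time point and 1 cycle sampled, a rhythm and a drift over the day are separated only by the shape of the curve.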
